A study of Homo sapiens with 2 samples.

Results

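The N-cadherin and mesenchymal transition genes are 10 named genes of the switch by which epithelial cells loosen their contacts and take on a migratory form. They were taken by symbol from the 55773 annotated gene symbols found in both tables: the cadherins CDH1 and CDH2, the transcription factors ZEB1, SNAI1, SNAI2 and TWIST1, the matrix gene FN1, the filament gene VIM, and the actin-binding genes CALD1 and TAGLN. Each matched 1 row. The libraries are 2 RNA-seq libraries of NCI-H2030, an established human lung adenocarcinoma cell line: 1 culture treated with SC, called SC here, and 1 treated with miR-494-3p AS, called AS. The labels expand neither abbreviation and give no dose or time. With 1 library in each group no difference has a replicate check, and all of them are differences between these 2 libraries. Values are in TPM, a level per column total corrected for transcript length, unless FPKM or coverage, the deposited read depth over a gene, is named. Annotated genes and assembled loci share the TPM column, so a read can count in both. TPM per FPKM was 1.98 in SC and 2.13 in AS.

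In this transition E-cadherin (CDH1), which holds epithelial cells together, gives way to N-cadherin (CDH2), and vimentin (VIM) and fibronectin (FN1) become abundant. Zinc finger proteins of the ZEB and SNAI families repress CDH1 by binding E-box sequences in its promoter, and TWIST1 is a basic helix-loop-helix factor that acts in the same programme. Lung adenocarcinoma lines lie at many points between the epithelial and the mesenchymal form, and many of them carry keratins and vimentin together.

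The treatment names the microRNA whose seed, the stretch that pairs with messenger RNAs, is given in capitals (bases 2 to 8), from RefSeq (GRCh38.p14):
miR-494-3p: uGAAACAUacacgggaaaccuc
The matching 7-base sites, ATGTTTC and TGTTTCA, were looked for in the longest 3' UTR that GENCODE release 29 lists for a gene. Of the 10 members, 2 held a site, 1 each in ZEB1 and SNAI2, a share of 20%, and 27.6% of 10560 measured coding genes did. The 2 sets differ, because the coding genes all had a mean of at least 1 TPM and ZEB1 and SNAI2 were below it. None of the members at that level held a site. The site of ZEB1 lay at bases 2095 to 2101 of its 3' UTR and is shown because it is in a member that the treatment could bear on directly; capitals mark the match.
ZEB1 site: tgtggctaaATGTTTCtggagaggt
CDH2, FN1 and CALD1, the members that were more than 2-fold higher in AS, held none. A match is a description of the letters and not a site shown to be bound.

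SC and AS both had a profile of high vimentin and near-zero E-cadherin. VIM, an intermediate filament protein of mesenchymal cells, stood at 1118 TPM (SC) and 928 TPM (AS), rank 115 and rank 126 among 19198 coding genes. CDH1 had 0.00741 TPM (SC) and 0.0137 TPM (AS). The keratins KRT8 and KRT18, filament proteins of simple epithelia, were abundant as well, at 486 and 558 TPM in SC and at 345 and 479 TPM in AS, and the epithelial adhesion molecule EPCAM was low, at 0.604 and 1.84 TPM. KRT19 was listed at 0 in both libraries. Of 9 markers of the alveolar and lung lineage, 2 reached 1 TPM in SC and 3 in AS; SFTPA1, SFTPA2 and SFTPC were listed at 0.

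Of the 10 members, 7 had a mean of at least 1 TPM over both libraries and are called measured; CDH1, ZEB1 and SNAI2 were below it. The ratio used was log2((AS + 1)/(SC + 1)), which understates the change of low genes. CDH2, FN1 and CALD1 were at least 2-fold higher in AS, 3 of 7, where 16.5% of all 13669 measured genes were. No member was at least 2-fold lower, where 2.17% of all measured genes were, and VIM, SNAI1, TWIST1 and TAGLN lay within 2-fold, all of them lower in AS. CDH2 counts as measured only through its level in AS. The median of the 7 was -0.19, against 0.28 for all measured genes. Relative to that median the log2 ratio was 3.18 for CDH2, 1.37 for FN1 and 0.94 for CALD1, so CALD1 was then short of 2-fold, where 9.17% of all measured genes were past it. The ratio on that scale was -0.55 for VIM, -0.47 for SNAI1, -0.63 for TWIST1 and -0.94 for TAGLN.

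**Figure D1:**
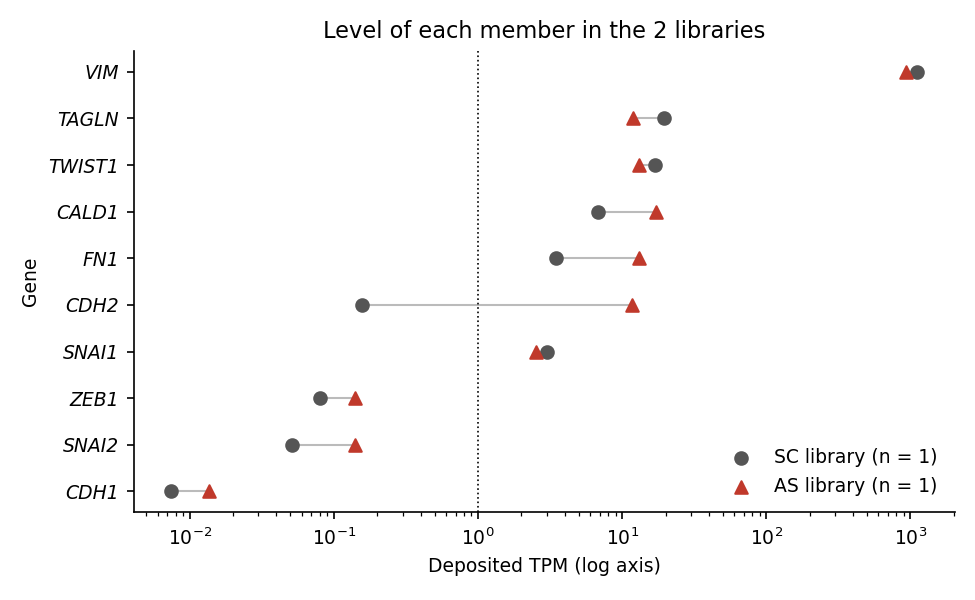
Deposited TPM (log axis) of the 10 members in the SC library (circles) and the AS library (triangles), 1 library each; the dotted line marks 1 TPM. VIM is far above the others at 1118 and 928 TPM, CDH1 is lowest at 0.00741 and 0.0137 TPM, and CDH2 has the longest line, from 0.157 to 11.8 TPM.

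CDH2 (ENSG00000170558, chromosome 18, 25530930 to 25757410, minus strand, GRCh37 coordinates as in the tables) encodes N-cadherin, the calcium-dependent adhesion protein of neural and mesenchymal cells. It stood at 0.157 TPM (SC) and 11.8 TPM (AS), a log2 ratio of 3.47. The deposited coverage gave a much smaller difference, 0.288 in SC and 0.861 in AS, or 2.99-fold (log2 ratio 1.31 after adding 0.1). The SC value is near the 0.235 of ZEB1 and SNAI2 in AS, a level too low to read a ratio from. The size of the CDH2 ratio thus rests on a low SC level. With 0.1 added, CDH2 and FN1 were the members past 2-fold in coverage, where 15.2% of all measured genes were higher by that much. With nothing added CALD1 was past it as well, and so were 16.3% of measured genes above 0 in both libraries. The relation of coverage to FPKM also differed between the libraries for this gene. In SC the coverage was 3.62 times the FPKM, the value that 53.0% of genes above 0 had in that library, and in AS it was 0.155 times the FPKM, whereas the usual value there was 3.54.

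The loci that the authors' program assembled from the reads differed in extent over CDH2. In SC the gene was covered by 2 separate loci on its strand. The upstream locus (25591885 to 25727694) had 1.07 TPM and began 29716 bases inside the annotated 5' end, and the downstream locus (25530930 to 25582988), over the 3' part, had 5.63 TPM. In AS a single locus (25513040 to 25758148) of 13.4 TPM ran over the whole gene and began 738 bases before the annotated 5' end. Set against the AS locus, the log2 ratio was 2.81 with the SC locus of largest overlap and 1.12 with the SC locus of highest TPM. With both SC loci summed it was 0.91, but this sum can count 1 transcript more than once. Past 2-fold were 16.1% of genes by the locus of largest overlap and 13% by the sum. Reads from CDH2 were thus assembled in SC at 5.63 TPM while its annotated row was at 0.157 TPM.

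FN1 (ENSG00000115414, chromosome 2, 216225163 to 216300895, minus strand) encodes fibronectin, a glycoprotein of the extracellular matrix that binds integrins. It had 3.49 TPM (SC) and 13.2 TPM (AS), a log2 ratio of 1.66. Coverage was 4.35 in SC and 9.67 in AS, 2.23-fold, with a log2 ratio of 1.14. In SC the gene held 4 assembled loci on its strand, of 1.97, 2.25, 1.93 and 9.15 TPM from the 5' to the 3' end. In AS 1 locus with the exact ends of the annotated gene had 13.1 TPM. The log2 ratio of the locus of largest overlap was 0.48, and with the SC loci summed (15.3 TPM) it was -0.21. TPM is corrected for length, so adding pieces of 1 gene can count 1 transcript more than once. Of the alternatives run for FN1, only this sum was below 0. AS also had 3 loci on the opposite strand of FN1, of 2.59, 1.69 and 2.24 TPM, and SC had none.

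**Figure D2:**
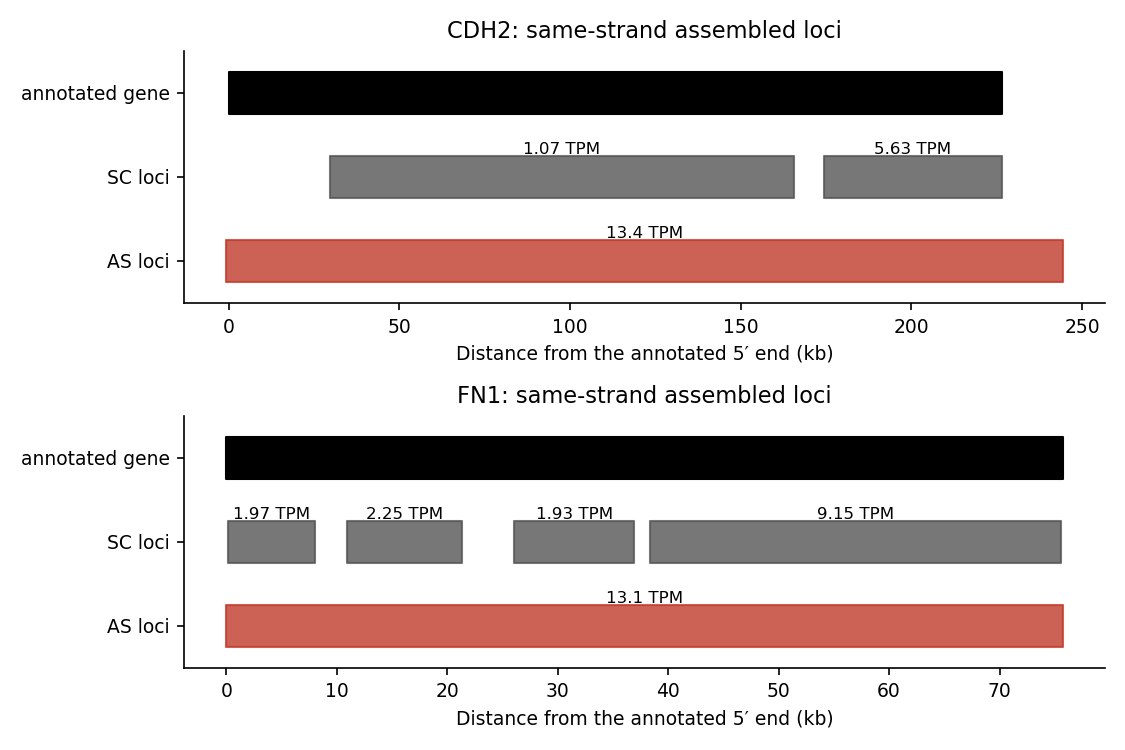
Extent of the annotated gene (black) and of the assembled loci on its strand in SC (grey) and AS (red) for CDH2 and FN1, as distance from the annotated 5′ end in kb, with the TPM of each locus above its bar. CDH2 is covered by 2 loci in SC and FN1 by 4, and each by 1 locus in AS.

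A change from several loci to a single locus was common across the tables and moved with the ratio. Counting loci with at least 50% of their span inside a gene, 1207 measured genes had 2 or more in SC and 1 in AS, CDH2 and FN1 among them. Their median log2 ratio was 0.91 in TPM and 0.77 in coverage, and 46.1% were at least 2-fold higher in TPM. For the 8827 genes with 1 locus in both libraries, which include VIM, SNAI1, TWIST1 and CALD1, the median was 0.20 in TPM and 0.09 in coverage, and 12.1% were at least 2-fold higher. The reverse change, from 1 locus in SC to 2 or more in AS, occurred in 641 genes with a median of 0.36 in TPM. Genes whose coverage had the usual ratio to FPKM in SC but not in AS, as CDH2 did, numbered 897, with a median of 1.07 in TPM and 0.84 in coverage. The part of these differences in assembly in the ratios of CDH2 and FN1 was not tested.

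CALD1 (ENSG00000122786, chromosome 7, 134429003 to 134655479, plus strand) encodes caldesmon, which binds actin and tropomyosin and restrains actomyosin contraction. It had 6.81 TPM (SC) and 17.3 TPM (AS), a log2 ratio of 1.23. Unlike CDH2 and FN1 it had 1 assembled locus in both libraries, over 84.3% of its span in SC and 84.4% in AS, at 6.80 and 18.05 TPM (log2 ratio 1.29). Its coverage, 0.359 in SC and 0.796 in AS, was low for its TPM, at 0.104 and 0.0980 times the FPKM, and gave a ratio of 2.22-fold. With coverage put on the TPM scale and 1 added, where 9.47% of all measured genes were past 2-fold, FN1 alone of the members was past it. With 0.1 added, the log2 ratio in coverage was 0.97, just under 2-fold.

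CDH2 alone of the 7 measured members was at least 2-fold higher in TPM, in coverage with 0.1 added and in the locus of largest overlap together, as 7.95% of 13275 measured genes with a locus in both libraries were. CALD1 joined it when no value was added to coverage, where 8.33% of genes met the joint rule. With all loci on the strand summed no member was higher in all 3 measures, where 6.73% of genes were. That sum has the limit given above for CDH2 and FN1. The joint call of CDH2 rests on its low SC coverage of 0.288.

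**Figure D3:**
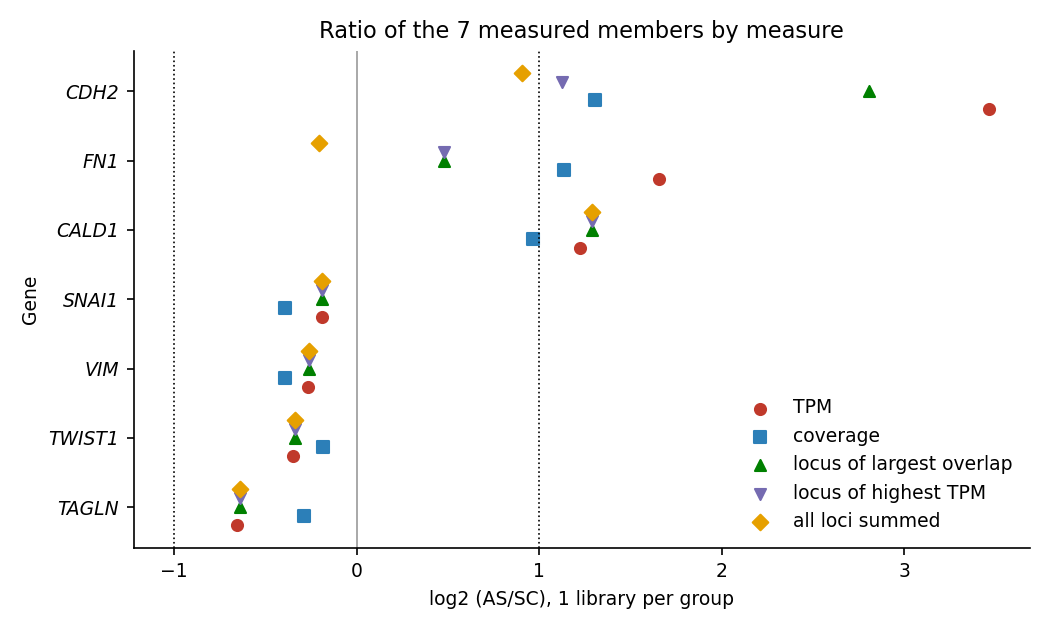
Log2 ratio of AS over SC for the 7 measured members by TPM, coverage and 3 readings of the assembled loci; the dotted lines mark 2-fold. CDH2 ranges from 0.91 to 3.47 and FN1 from -0.21 to 1.66, whereas the markers of SNAI1, VIM, TWIST1 and TAGLN lie close together below 0.

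Among the transcription factors, TWIST1 and SNAI1 were above 1 TPM in both libraries and ZEB1 and SNAI2 were near 0. TWIST1 (ENSG00000122691, chromosome 7, 19060614 to 19157295, minus strand) had 16.9 TPM (SC) and 13.1 TPM (AS), a log2 ratio of -0.35 in TPM and -0.18 in coverage. Its assembled locus had the same ends in both libraries, covered the 4626 bases at the 5' end of the annotated span, and had 17.0 and 13.2 TPM. SNAI1, which encodes Snail (ENSG00000124216, chromosome 20, 48599536 to 48605423, plus strand), had 3.04 TPM (SC) and 2.53 TPM (AS), a log2 ratio of -0.19 in TPM and -0.39 in coverage. Its row and its assembled locus had the same coordinates and the same TPM in each library.

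ZEB1 (ENSG00000148516, chromosome 10, 31607424 to 31818742, plus strand) had 0.0809 TPM (SC) and 0.141 TPM (AS). Loci assembled on its strand covered small parts of it. The locus near its 3' end had 0.702 TPM (SC) and 0.738 TPM (AS). AS had another of 1.34 TPM that coincided with SPTLC1P1, a pseudogene inside ZEB1. The antisense transcript ZEB1-AS1 was above ZEB1 itself, at 1.53 TPM (SC) and 1.27 TPM (AS), and it overlaps 1953 bases of ZEB1. SNAI2, which encodes Slug (ENSG00000019549, chromosome 8, 49830249 to 49834299, minus strand), had 0.0511 TPM (SC), 0.141 TPM (AS) and no assembled locus. Its coverage of 0.0938 in SC and 0.235 in AS is too low a level to read a ratio from, and the same holds for ZEB1 (0.148 and 0.235).

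CDH1 (ENSG00000039068, chromosome 16, 68771128 to 68869451, plus strand) had a coverage of 0.0136 in SC and 0.0228 in AS, so no difference was detectable at this depth. SC had no assembled locus in CDH1. AS had 2 short ones on its strand, of 0.600 and 1.65 TPM, which spanned 2.30% and 4.90% of the gene and did not reach its 5' end. The 3 annotated genes inside the span of CDH1 were listed at 0 in both libraries.

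VIM (ENSG00000026025, chromosome 10, 17270258 to 17279592, plus strand) was lower in AS in TPM, coverage and assembled locus, with a log2 ratio of -0.27 in TPM, -0.40 in coverage (789 in SC and 600 in AS) and -0.26 in its single assembled locus (1190 and 994 TPM). These values lie within 2-fold. VIM-AS1, which overlaps 1727 bases of VIM on the opposite strand, was at 0.445 and 0.650 TPM, far below VIM. TAGLN (ENSG00000149591, chromosome 11, 117070037 to 117075498, plus strand) encodes transgelin, an actin-binding protein of smooth muscle. It had 19.4 TPM (SC) and 12.0 TPM (AS), a log2 ratio of -0.66, and its coverage was 20.6 and 16.8, a log2 ratio of -0.29. Its assembled locus (39.5 and 24.9 TPM) also spanned the neighbouring gene SIDT2 (14.9 and 13.7 TPM), so it is not a reading of TAGLN alone. The last 446 bases of TAGLN overlap PCSK7 on the opposite strand, which was at 15.9 and 14.3 TPM. The library kit keeps strand, but whether the values were computed by strand is not given in the sources used here, and reads shared by such pairs may not be told apart.

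Base composition moved with the ratios. Measured coding genes were divided into 10 groups of nearly equal size by the GC content of their longest transcript, and the median log2 ratio in TPM was 0.90 in the group of lowest GC content and -0.29 in the highest. The higher members were of low or middle GC content and the lower ones of higher GC content. CALD1 (41.6% GC) lay 0.33 above the median of its GC group in TPM and 0.12 above it in coverage. CDH2 (45.0%) lay 2.81 above in TPM and 0.73 above in coverage, and FN1 (50.2%) 1.22 and 0.79 above. Relative to its group in TPM, VIM (54.1%) was at -0.32, TAGLN (56.3%) at -0.70, SNAI1 (58.2%) at -0.13 and TWIST1 (57.2%) at -0.28. In coverage these 4 lay between -0.30 and 0.02 relative to theirs. The part of base composition in these ratios was not tested.

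**Figure D4:**
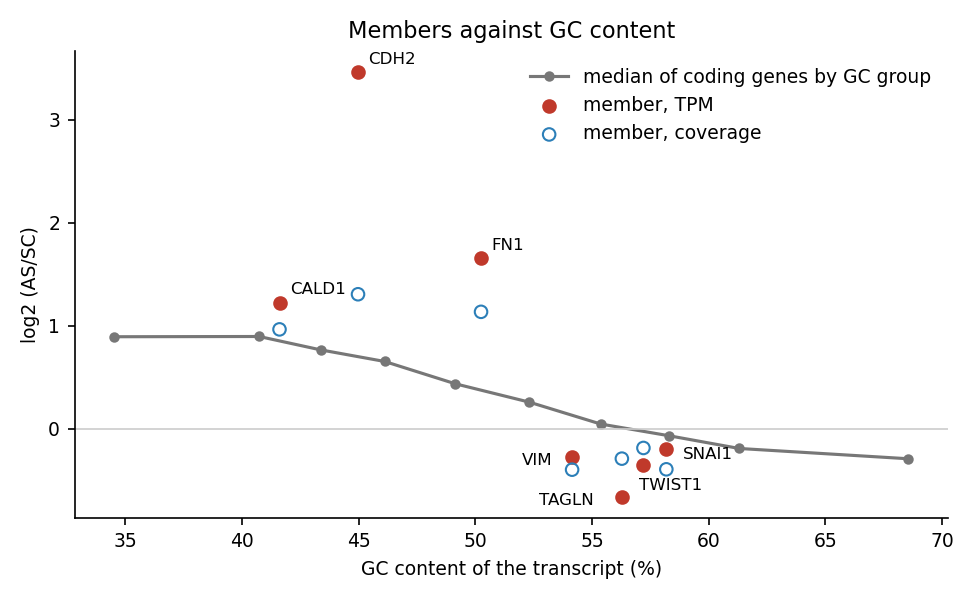
Log2 ratio of the 7 measured members in TPM (filled) and coverage (open) against the GC content of the transcript, with the median TPM ratio of 10 groups of measured coding genes by GC content (grey line, at the middle of the range of each group). CALD1 lies 0.33 above its group, whereas CDH2 and FN1 lie 2.81 and 1.22 above theirs in TPM.

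Promoter windows of 300 bases, 250 before to 50 after an annotated start, were taken from RefSeq (GRCh38.p14) for 5 members: CDH2, VIM, FN1, ZEB1 and CALD1. CDH1, SNAI1, TWIST1 and TAGLN had no entry. No window of SNAI2 was taken, so the member counts leave this gene out. The E-box CANNTG, which reads the same on both strands, was in 5 of the 15 member windows taken, against 68.7% of 35116 windows of all genes. Its form CAGGTG, on either strand, was in 2 of the 15, both of ZEB1, against 20.6% of all windows. The windows of CDH2 and FN1, the genes with the largest ratios in TPM, are printed with any E-box in capitals, since the SC loci of CDH2 did not reach the annotated start and the AS locus did.
CDH2, upstream start, chr18:28177081-28177380, minus strand: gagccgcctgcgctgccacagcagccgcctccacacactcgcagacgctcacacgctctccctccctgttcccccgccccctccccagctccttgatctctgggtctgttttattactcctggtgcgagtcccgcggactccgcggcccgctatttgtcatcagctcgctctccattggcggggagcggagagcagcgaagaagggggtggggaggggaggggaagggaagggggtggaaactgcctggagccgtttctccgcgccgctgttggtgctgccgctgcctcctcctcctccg
CDH2, inner start, chr18:28036592-28036891, minus strand: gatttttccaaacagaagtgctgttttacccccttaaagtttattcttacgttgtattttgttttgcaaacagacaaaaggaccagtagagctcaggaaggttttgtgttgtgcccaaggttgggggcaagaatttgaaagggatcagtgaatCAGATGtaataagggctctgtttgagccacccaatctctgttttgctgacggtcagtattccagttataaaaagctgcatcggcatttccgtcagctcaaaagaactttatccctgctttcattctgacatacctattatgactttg
FN1, chr2:215436019-215436318, minus strand: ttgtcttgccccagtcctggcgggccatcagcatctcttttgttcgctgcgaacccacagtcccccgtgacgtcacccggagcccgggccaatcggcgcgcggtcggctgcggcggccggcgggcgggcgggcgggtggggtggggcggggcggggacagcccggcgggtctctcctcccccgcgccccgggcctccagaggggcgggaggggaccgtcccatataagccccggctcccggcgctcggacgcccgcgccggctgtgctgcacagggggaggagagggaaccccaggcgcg
The upstream window of CDH2 has 67.0% GC and the inner window 40.7%, and the FN1 window has 76.7%. Only the inner window of CDH2 holds an E-box among these 3, and no match says only that these letters are not in the window.

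The cadherins outside the members were mostly at or near 0. Of 20, only CDH24, CDH4 and CDH10 were measured. None passed 2-fold in TPM after adding 1, where 16.5% of all measured genes were higher and 2.17% lower. CDH10, a cadherin of type II, was the nearest, at 2.38 TPM (SC) and 0.962 TPM (AS), a log2 ratio of -0.78. It was past 2-fold lower with 0.1 added and relative to the median of all measured genes (-1.07), where 3.67% and 5.09% of all measured genes were. CDH4 was at 4.48 and 4.31 TPM. CDH24, also of type II, was the most abundant, with 28.1 TPM (SC) and 28.5 TPM (AS), a log2 ratio of 0.02, above CDH2 in both libraries. CDH3, the P-cadherin of epithelia, was listed at 0 in both. Of 16 catenins and junction partners with an annotated row, 11 were measured, and CTNNA2, CTNNA3 and CTNND2 were at or near 0. Of the 11, 4 were at least 2-fold higher in TPM and none lower, where 16.5% of all measured genes were higher, and their median log2 ratio was 0.60. Relative to the median of all measured genes 2 were past 2-fold higher, where 9.17% of all measured genes were. PKP4, an armadillo protein of junctions, was at 5.60 and 25.6 TPM (2.01). The afadin gene MLLT4 was at 0.664 and 3.14 TPM (1.31) and CTNNAL1 at 18.8 and 45.3 TPM (1.23). PKP4, MLLT4 and CTNNAL1 were past 2-fold in coverage and locus too. Of 13275 measured genes with a locus in both libraries, 7.95% were higher in all 3 measures. MLLT4 counts as measured only through its level in AS. CTNNB1, which encodes beta-catenin, was at 18.9 and 40.1 TPM (1.05; 0.997 in coverage). JUP, the plakoglobin of desmosomes and adherens junctions, was at 556 and 446 TPM (-0.32), and CTNNA1, alpha-catenin, at 103 and 134 TPM (0.38). The median GC content of the list was 47.0%. In the group of coding genes by GC content that holds this value, 25.8% were at least 2-fold higher and the median was 0.66.

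Of 18 other transcription factors of the transition, 10 were measured. ZEB2 (0.0125 and 0.0320 TPM), FOXQ1, KLF8 and TCF4 were at or near 0 like ZEB1 and SNAI2. FOXC1, PRRX1 and GSC were below 1 TPM in both libraries. SNAI3 was at 1.37 TPM (SC) and 0.198 TPM (AS), a log2 ratio of -0.99 in TPM and -2.61 in coverage. Its mean was below 1 TPM, so it is outside the 10 measured, and it had no assembled locus. Of the 10, 1 was at least 2-fold higher and none lower, against 16.5% and 2.17% of all measured genes, with a median log2 ratio of 0.32. FOXC2 was at 28.1 and 34.5 TPM, TCF3, the E2A gene, at 24.0 and 28.9 TPM and SOX4 at 15.3 and 19.4 TPM. The gene past 2-fold was TCF12, a partner of TWIST1 in dimers, at 0.241 and 4.87 TPM (2.24), but 0.69 in coverage. TCF12 counts as measured only through its level in AS. Of 14 epithelial regulators, 5 were measured, with a median log2 ratio of 0.90 in TPM and 1.16 in coverage. At least 2-fold higher were 1 in TPM and 3 in coverage, against 16.5% and 15.2% of all measured genes. KLF5 was higher in both, at 0.532 and 2.98 TPM, a log2 ratio of 1.38 in TPM and 1.34 in coverage. Like TCF12, it counts as measured only through its level in AS. KLF4 was at 2.02 and 4.62 TPM (0.90; 1.17 in coverage) and FOXA1 at 1.56 and 3.998 TPM (0.97; 1.16 in coverage). GRHL2, a factor that maintains CDH1 expression, was listed at 0 in both libraries, and so was ELF5. ELF3 was at 20.0 and 32.4 TPM (0.67) and the splicing regulator ESRP2 at 13.9 and 12.4 TPM (-0.15).

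Epithelial markers were divided. Of 17 measured, 2 were at least 2-fold higher, 1 was lower and 14 lay within 2-fold, where 16.5% of all measured genes were higher and 2.17% lower, and their median was -0.12. The count higher was 4 in coverage and 4 in the locus of largest overlap, where 15.2% and 16.1% of genes were higher. Relative to the median of all measured genes it was 0, where 9.17% were higher. F11R was among the 4 by locus, at 12.2 and 298 TPM, whereas its annotated row was at 15.2 and 21.7 TPM. The tight junction genes OCLN (2.36 and 6.71 TPM) and CLDN1 (16.1 and 38.3 TPM) both had a log2 ratio of 1.20. SPINT1, an inhibitor of matriptase, was lower at 47.5 and 21.1 TPM (-1.13; -1.24 in coverage), and the related inhibitor SPINT2 was at 251 and 187 TPM (-0.42). None of the 19 measured actin-binding and contractile genes passed 2-fold in TPM after adding 1, where 16.5% of all measured genes were higher and 2.17% lower. Relative to the median of all measured genes 1 was past 2-fold lower, where 5.09% of all measured genes were. With all loci on the strand summed 1 was past 2-fold higher, where 13% of genes were. The median of these 19 was -0.23, on the side of TAGLN rather than CALD1. The median GC content of the list was 57.0%. In the GC group that holds this value, 1.95% of coding genes were at least 2-fold higher and the median was -0.07. MYL6, a myosin light chain, was at 3207 and 2499 TPM (-0.36), TAGLN2 at 2541 and 1816 TPM (-0.48) and FLNA, filamin A, at 964 and 710 TPM (-0.44).

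Of 9 measured intermediate filament genes and linkers, 2 were at least 2-fold higher, where 16.5% of all measured genes were, with a median of 0.22. Relative to the median of all measured genes 1 was past 2-fold, where 9.17% of all measured genes were higher. SYNM, which encodes synemin, a partner of vimentin in filaments, was at 2.61 and 14.9 TPM (2.14; 1.29 in coverage), and LMNB1 at 14.0 and 30.1 TPM (1.06; 0.97 in coverage). LMNA was at 568 and 409 TPM (-0.47), LMNB2 at 91.5 and 107 TPM (0.22) and the linker gene PLEC, which encodes plectin, at 201 and 194 TPM (-0.05). None of 13 measured mesenchymal matrix and surface genes passed 2-fold, where 16.5% of all measured genes were higher and 2.17% lower. The median of this list was -0.01. LOXL2, a collagen crosslinking enzyme, was at 232 and 180 TPM, MMP14 at 125 and 124 TPM and S100A4 at 67.3 and 75.4 TPM. Of 6 measured fibronectin receptors, 1 was past 2-fold in TPM, where 16.5% of all measured genes were higher. It was the beta subunit ITGB1, at 55.1 and 133 TPM, a log2 ratio of 1.26 in TPM and 1.10 in coverage. Relative to the median of all measured genes its log2 ratio was 0.97, short of 2-fold. ITGA5, its partner in the classical fibronectin receptor, was at 91.1 and 55.9 TPM (-0.70), and ITGB5 at 167 and 177 TPM (0.09).

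**Figure D5:**
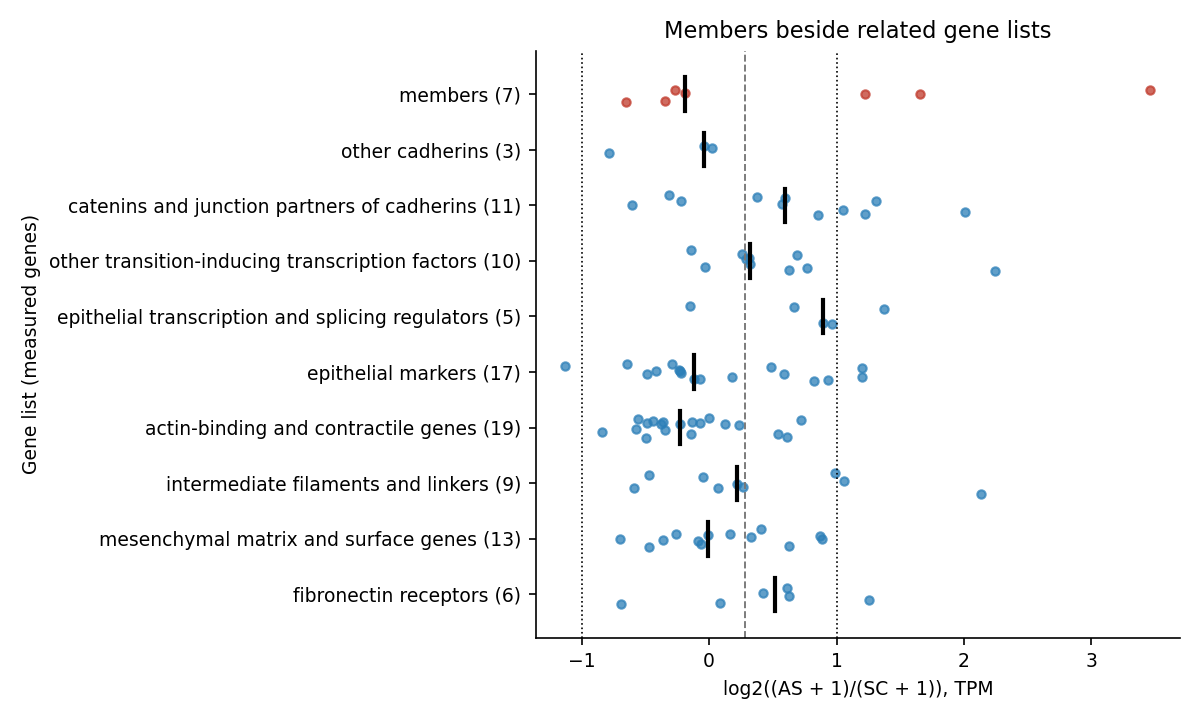
Log2 ratio in TPM of each measured gene (points, spread vertically at random), by gene list, with the list median (black bar), the median of all measured genes at 0.28 (dashed) and 2-fold (dotted). The members (red) fall into 3 genes past 2-fold and 4 below 0. No gene of the actin-binding list or the matrix list, which leave out the members, passes 2-fold.

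Markers of other cell types were low, with exceptions. Of 9 fibroblast markers 3 reached 1 TPM in each library (COL1A1, COL3A1 and LUM), with a sum of 32.3 TPM in SC and 25.5 TPM in AS; COL1A2 was listed at 0 in both. Smooth muscle markers summed to 4.13 and 2.71 TPM and endothelial markers to 0.149 and 0.109 TPM. Of the immune markers PTPRC, CD3E and MS4A1 were listed at 0, and the summed 294 and 207 TPM came mostly from CD68, a lysosomal protein (285 and 203 TPM). The lower fibroblast sum in AS came from COL1A1 (26.3 and 15.8 TPM), whereas COL3A1 (4.32 and 7.23 TPM) and LUM (1.67 and 2.35 TPM) were higher there. The part of these markers in the ratios of the members was not tested.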

How the data were processed

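Total RNA was sequenced after a library preparation that keeps strand, per the labels' protocols. The authors deposited 1 table per library, with coverage, FPKM and TPM columns per the file headers, for annotated genes and for loci assembled from reads. Aligner and quantifier: not given in the sources used here. Per the submitters' processing notes the build was GRCh38 or hg38, but only 3.44% of 17681 coding genes began within 1000 bases of their GRCh38 start, and coordinates are those of GRCh37. Rows of 1 symbol were summed. A mean of 1 TPM or more made a gene measured, and a log2 ratio of 1 after adding 1 to TPM, or 0.1 to coverage, was the size rule. No test was possible with 1 library per group. Read counts are not given, so no interval was computed. GENCODE release 29 gave gene type, GC content and 3' UTRs by gene identifier. The named genes were all members, list genes past 2-fold in TPM, coverage and locus, the 3 most abundant genes per list and genes overlapping a member. The others past 2-fold in TPM (CTNNB1, TCF12 and LMNB1), FOXA1, F11R and SNAI3 were chosen after their values were seen. So were genes listed at or near 0, genes below 1 TPM and the lower-ranked markers named. Members, lists and rules were chosen with earlier results of these data known. Calculations were tested on simulated data (Python 3.11.15, pandas 2.3.3).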

Additional observations from a re-analysis of the deposited data

How the results depend on the processing

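The count of 3 members at least 2-fold higher in AS was 2 or 3 under 12 of 14 alternatives and 1 under the others: with coverage scaled to TPM and 1 added (FN1) and with all loci on the strand summed (CALD1). The share of all genes that were higher ran from 5.32% (5 added to TPM) to 23% (0.1 added) over the alternatives, and was 9.47% and 13% under the 2 that left 1 member. The count of members at least 2-fold lower was 0 under all 14. The share of all genes that were lower ran from 0.512% (5 added to TPM) to 5.25% (ratios centred on the trimmed mean). The count of members higher in TPM, coverage and locus together, 1, was 2 with no value added to coverage and 0 with the loci summed. FN1 reversed to -0.21 with the loci summed. CDH2 was above 0 under all 14 alternatives, from 0.39 (coverage scaled to TPM) to 5.53 (0.1 added to TPM), and VIM, SNAI1, TWIST1 and TAGLN were below 0 under each alternative run for them. CALD1 was short of 2-fold under 5 of 14, among them centring on the median (0.94). The causes were not tested, except that the summed loci add 2 SC pieces of CDH2 and 4 of FN1. Such a sum can count 1 transcript more than once. The readings without a value added to coverage and by the locus of highest TPM were chosen after seeing the data. No paired analysis was possible because each group has 1 library. Depth limits CDH1, ZEB1 and SNAI2, whose coverage was below 0.3 in both libraries. It also limits CDH2, whose coverage was below 0.3 in SC (0.288) but not in AS (0.861).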
